A study of Mus musculus with 2 samples.

Results

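Melanoma-dense spots are the capture spots of a tumour section with a high share of melanocytic transcripts and little collagen transcript. They were chosen by measured values, among spots with at least 5000 unique molecular identifiers (UMIs, single captured molecules), under 2 criteria. The share of UMIs from Dct, Tyrp1, Pmel and Mlana, enzymes and proteins of the pigment organelle, had to lie in the highest 33.3% of its own section. The summed Col1a1, Col1a2 and Col3a1 level, in CPM (the spot's counts scaled to a common total), had to lie below the median of its own section. This left 1370 of 5812 spots, of which 613 (of 2746) were KO and 757 (of 3066) were WT spots. Their counts were summed per section and compared across all genes, to read the state of the tumour-rich areas with little stroma.

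The sections came from B16.F10 melanomas, a pigmented mouse melanoma line, taken on day 15 after inoculation into untreated mice of 8 to 16 weeks, fixed in formalin and cut at 10 µm. The KO section came from a Foxp3-Cre × CK2b-fl/fl mouse, in which Cre driven by Foxp3 removes Csnk2b from regulatory T cells. The WT section came from a mouse whose genotype field reads wild-type and whose sample title and series text give Csnk2bfl/fl, with no Cre listed. By the title, both hosts carry the floxed allele. The tumour cells belong to the same line in both and are not a target of the Cre. Each spot can hold several cells, so a level in melanoma-dense spots is that of a small region and not of pure tumour cells. With 1 section per genotype, mouse, section and genotype cannot be told apart, no difference has a replicate check, and spots were not used as replicates. Ratios are therefore given with 95% intervals that cover counting error only, and spread within a section is given by quadrant. Y-linked genes gave UMIs in the KO spots analysed and none in the WT spots. The labels do not give host sex, and a difference in it could not be told apart from genotype either.

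Melanoma cells keep much of the pigment cell programme under the transcription factors MITF and SOX10. Tumour regions short of oxygen stabilise hypoxia-inducible factors (HIF), which raise genes of glucose uptake, glycolysis, acid handling and vessel growth. Amino acid shortage and protein folding stress act through the transcription factor ATF4, which raises genes of serine, one-carbon and proline synthesis and of amino acid transport.

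The melanoma-dense spots held 25531383 UMIs in KO and 30678774 UMIs in WT, with medians of 41388 and 36666 UMIs per spot in the KO and WT section. A total of 2138 spot barcodes occur in both sections, as barcodes name positions of the same capture grid. The spots lay in different places. In the KO section 51 spots (8.32%) were within 2 grid steps of the tissue edge or of the outermost capture positions, against 363 (48.0%) in the WT section. The median distance was 9 steps for KO and 3 steps for WT spots. Off-tissue genes, such as insulins and protamines, gave a median of 13 UMIs in the KO spots and 5.5 in the WT spots.

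**Figure D1:**
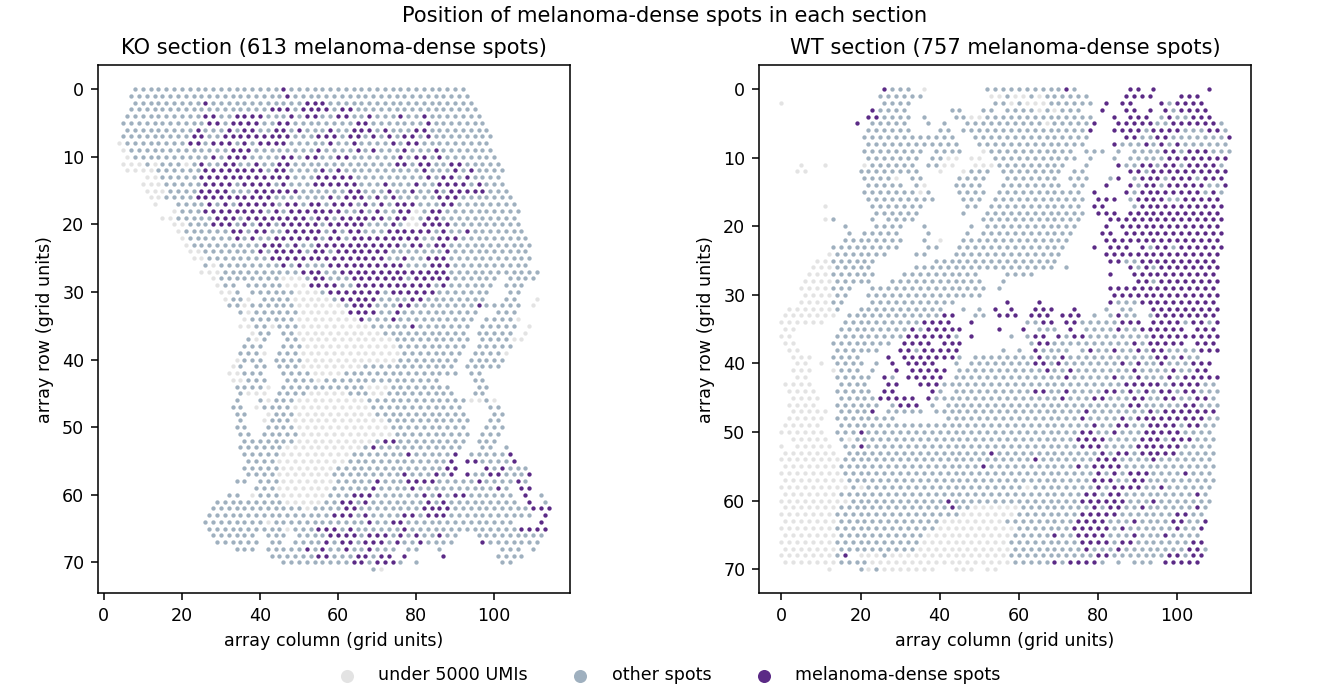
Position of melanoma-dense spots (purple), other spots with at least 5000 UMIs (blue-grey) and spots under that minimum (light grey) on the capture grid, with array column and array row as axes, KO section left and WT section right. The 613 KO spots lie mainly inside the tissue, while 363 of the 757 WT spots lie within 2 steps of its edge.

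The criteria used the 7 genes named above, so their values describe the choice and test nothing. The lowest share of a member was 4.74268% in the KO section, where the highest share outside was 4.74221%. In the WT section these were 4.27269% and 4.27068%. The collagen limit differed far more, with the highest member at 143.147 CPM in KO and at 899.11 CPM in WT, and the lowest spot outside at 145.247 CPM in KO and at 908.877 CPM in WT. Summed over members, the 4 melanocytic genes held 51239 CPM in KO and 47901 CPM in WT spots. Col1a1 stood at 18.6 CPM in KO and 62.2 CPM in WT spots. Fibroblast and matrix genes below are therefore read beside these unequal limits.

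The label was checked on melanocytic genes that the criteria did not use. Their sum was 16930 CPM in KO and 15069 CPM in WT melanoma-dense spots, which is 1.23 and 1.31 times that of the other spots of the KO and the WT section. Tyr, the first enzyme of melanin synthesis, was at 2854 CPM in KO and 2044 CPM in WT spots, a ratio of 1.40 (1.38 to 1.41). Gpnmb, a melanosome glycoprotein, had 4954 CPM in KO and 3820 CPM in WT spots. Trpm1, a melanocyte ion channel, was lower at 1372 CPM in KO against 1736 CPM in WT spots. Of 18 measured genes 10 lay above 1 (against 48.6% of all genes) and none reached 2-fold. Their median log2 ratio was 0.05, which scaling by TMM factors turned to -0.16. The pigment programme outside the criteria was thus measured in both sections, with members on both sides of 1.

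Across all genes, 10767 were measured with at least 100 UMIs over both sums. The median log2 ratio was -0.02 and 84.9% of the genes lay within 1.5-fold. A ratio of 2 or more was found for 141 genes (1.31% of those measured), and a ratio of 0.5 or less for 220 genes (2.04%). Ratios above 1 made up 48.6% and ratios below 1 made up 51.4%. The higher genes were 39.1% of both classes, which became 17.5% (94 and 444 genes) with TMM factors and 14.1% (82 and 498) with median-of-ratios size factors, since these moved the median of all genes to -0.23 and -0.26. Planned choices of spots moved this share both ways, from 37.1% (equal weight per spot) to 44.9% (1 melanocytic cut over both sections). The 2 choices made after seeing the data raised it further. Equal weight for 4 bins of distance from the tissue edge gave 51.9% (165 and 153 genes). With 1 collagen limit for both sections it was 53.4% (165 and 144). In the other spots of the sections, 12796 genes were measured, with 2.84% at 2-fold or more above WT and 8.39% as far below it, and with 53.5% of ratios above 1 and 46.5% below 1.

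Among genes with at least 500 UMIs in a section, those with the highest and lowest ratios included hypoxia, blood and macrophage genes, beside some of no list. At the high end, Aire, the autoimmune regulator of thymic epithelium, had 3991 UMIs (156 CPM) in KO and 806 UMIs (26.3 CPM) in WT spots, a ratio of 5.95 (5.51 to 6.43), with 3.68 in the other spots. Tnfrsf9, the costimulatory receptor 4-1BB, had 781 UMIs (30.6 CPM) in KO and 182 UMIs (5.93 CPM) in WT spots, a ratio of 5.16 (4.38 to 6.09), with 1.43 in the other spots. Bhlhe40, a transcriptional repressor of the clock and stress responses, had 892 CPM in KO and 241 CPM in WT spots, a ratio of 3.70. Others among the 15 highest were Rgs11, a regulator of G protein signalling, at 4.74, Epm2a, a glycogen phosphatase, at 4.14 and Selenbp1, a selenium-binding protein, at 3.90. The last were Tmod1, which caps actin filaments, at 3.43 and Prelid2 at 3.34. At the low end, Serpinf1, which encodes the antiangiogenic factor PEDF, had 104 UMIs (4.07 CPM) in KO and 770 UMIs (25.1 CPM) in WT spots, 6.16-fold lower. Cyp4b1, a cytochrome P450, was 5.17-fold lower, Pf4, a platelet and macrophage chemokine, 4.24-fold, and the matrix protein Mgp 3.24-fold lower, although Mgp was 1.99-fold lower without the collagen limit and 1.85-fold lower with 1 collagen limit for both sections. The linker histone gene Hist1h1a was 3.03-fold and the dehydrogenase gene Dhrs7 2.76-fold lower.

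**Figure D2:**
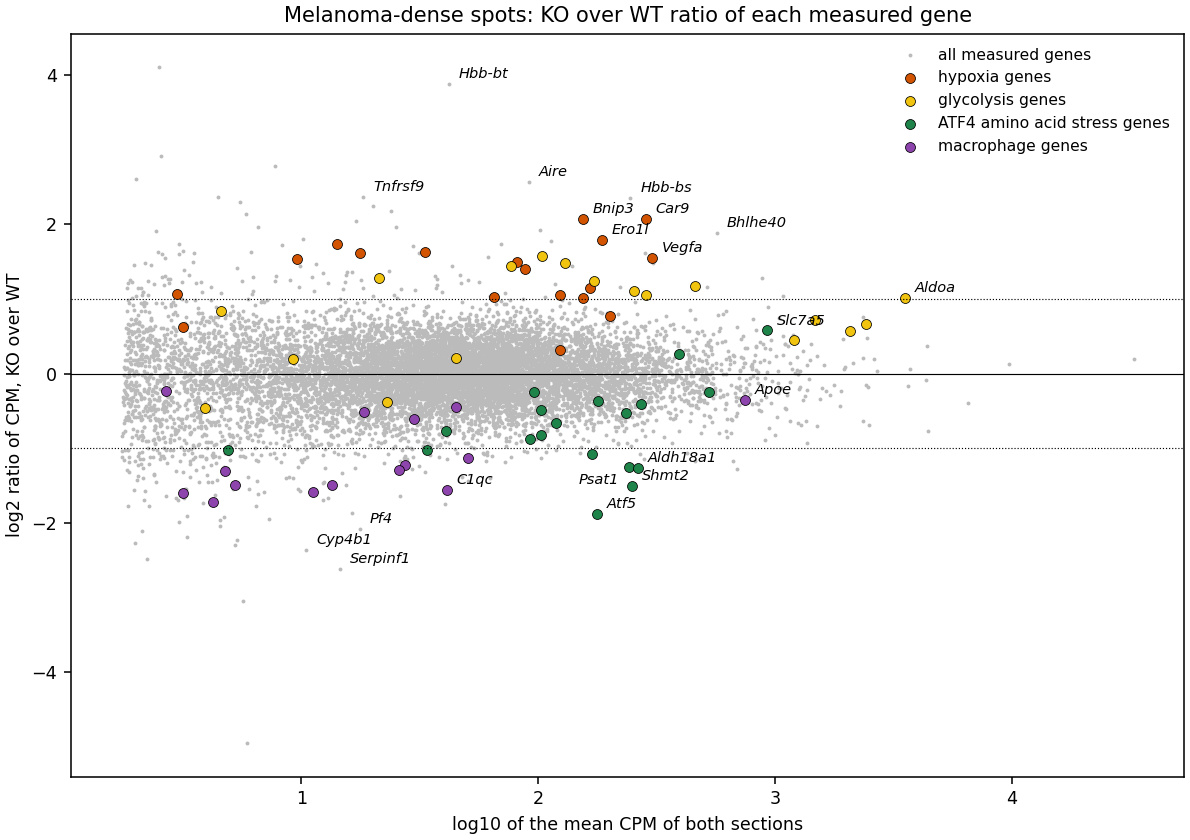
Log2 ratio of CPM, KO over WT, against the log10 of the mean CPM of both sections for each of 10767 measured genes in melanoma-dense spots (grey), with 4 gene lists in colour; dotted lines mark 2-fold. All 18 hypoxia genes lie above 0, all 15 macrophage genes below 0, and 17 of 19 ATF4 genes below 0. Of all genes 48.6% lie above and 51.4% below 0.

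Hypoxia genes were higher in the KO melanoma-dense spots. All 18 measured members had ratios above 1, where 48.6% of all genes did, and 15 were at least 2-fold higher, where 1.31% of all genes were. Their median log2 ratio was 1.45, against -0.02 over all genes and 0.37 for the same list in the other spots. Summed, the list held 2895 CPM in KO and 1124 CPM in WT spots, a ratio of 2.58 (2.54 to 2.61).

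Car9, a carbonic anhydrase that exports acid, had 11731 UMIs (459 CPM) in KO and 3362 UMIs (109.6 CPM) in WT spots, a ratio of 4.19 (4.03 to 4.36). It lies at chr4:43507026-43513729 in GRCm38, the build called mm10. Bnip3, a mitophagy receptor at chr7:138890836-138909506, had 6356 UMIs (249 CPM) in KO and 1819 UMIs (59.3 CPM) in WT spots, a ratio of 4.20 (3.98 to 4.43). Both genes were thus about equally far apart between sections. Ero1l, the oxidase that forms disulfide bonds in the endoplasmic reticulum (also called Ero1a), had 288 CPM in KO and 83.4 CPM in WT spots, a ratio of 3.45. The vasodilator peptide gene Adm was at 21.8 CPM in KO and 6.55 CPM in WT spots, a ratio of 3.32. Vegfa, the main vessel growth factor, had 451 CPM in KO and 153 CPM in WT spots, a ratio of 2.94 (2.84 to 3.04). The lowest members were P4ha1, a collagen prolyl hydroxylase, at 1.71, the lipase inhibitor gene Angptl4 at 1.55 and Ndrg1, a stress gene of iron and oxygen shortage, at 1.25 (1.19 to 1.31).

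The promoters of the list were searched for the core letters that HIF binds, ACGTG and GCGTG, on both strands, in RefSeq windows of GRCm38.p6 that run from 250 bases before to 50 after a gene's start. Of 32817 promoters 43.8% held at least 1 match, against 17 of 23 promoters (73.9%) of the list. All 14 list genes with a table entry, which share out these 23 promoters, had a match in at least 1 promoter. The share of all genes with a match in at least 1 promoter was not computed, so the count per gene has no background. Windows were not matched on base composition, and a match is a description of letters, not a site. The 3 windows below belong to the list genes with the highest ratios, with the matched letters in capitals (overlapping matches run together). Bnip3 (chr7:138909457-138909756, minus strand) holds 5 matches, Car9 (chr4:43506776-43507075, plus strand) 1 and Ero1l (chr14:45318523-45318822, minus strand) 3.
Bnip3: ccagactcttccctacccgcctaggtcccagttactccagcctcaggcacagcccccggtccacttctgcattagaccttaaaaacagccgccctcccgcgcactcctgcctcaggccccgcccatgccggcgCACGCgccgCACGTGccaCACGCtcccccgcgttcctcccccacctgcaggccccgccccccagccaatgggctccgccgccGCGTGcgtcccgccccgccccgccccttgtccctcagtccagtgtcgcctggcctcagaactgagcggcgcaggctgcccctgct
Car9: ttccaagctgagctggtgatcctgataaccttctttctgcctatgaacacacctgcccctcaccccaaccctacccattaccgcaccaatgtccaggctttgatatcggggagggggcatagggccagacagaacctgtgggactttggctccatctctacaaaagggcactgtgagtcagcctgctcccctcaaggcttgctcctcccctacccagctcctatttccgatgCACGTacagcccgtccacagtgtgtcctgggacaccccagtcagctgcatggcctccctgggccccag
Ero1l: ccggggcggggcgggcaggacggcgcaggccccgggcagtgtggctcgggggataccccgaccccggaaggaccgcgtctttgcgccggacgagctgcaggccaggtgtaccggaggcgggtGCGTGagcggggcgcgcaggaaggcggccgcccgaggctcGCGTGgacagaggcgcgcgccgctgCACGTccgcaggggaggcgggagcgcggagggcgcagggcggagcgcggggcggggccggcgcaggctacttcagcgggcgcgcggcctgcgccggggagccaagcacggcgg

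Glycolysis genes showed the same direction with smaller ratios. Of 18 measured members 16 had ratios above 1 (against 48.6% of all genes), and 9 of them reached 2-fold (against 1.31%). The median log2 ratio was 0.92, and 0.42 in the other spots. Their sum was 15610 CPM in KO and 9029 CPM in WT spots. With TMM factors 5 members, and with median-of-ratios size factors 4, remained at 2-fold. Slc16a3, the lactate exporter MCT4, was at 155.6 CPM in KO and 52.1 CPM in WT spots, a ratio of 2.98 (2.82 to 3.17), with 1.23 in the other spots. Hk2, the hexokinase that traps glucose in the cell, had 192 CPM in KO and 68.6 CPM in WT spots, a ratio of 2.80. Aldoa, an aldolase, had 4727 CPM in KO and 2347 CPM in WT spots, a ratio of 2.01. Pgk1, Gpi1 and Pkm, later and earlier enzymes of the pathway, had ratios of 1.64, 1.58 and 1.49. The neuronal-type glucose transporter Slc2a3, at 0.771, and the regulatory kinase Pfkfb4, at 0.726, lay on the other side of 1. Of 27 respiratory chain genes none reached 2-fold either way, and their median of 0.16 became -0.05 under TMM scaling.

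The difference in hypoxia genes was present in all 4 bins of distance from the tissue edge. At 1 to 2 steps from the edge the list held 2529 CPM in KO and 1204 CPM in WT spots. At 3 to 5 steps it held 2453 CPM in KO and 1059 CPM in WT, and at 6 to 9 steps 2971 CPM in KO and 997 CPM in WT. At 10 or more steps it held 2995 CPM in KO and 1243 CPM in WT spots. The spots at 1 to 2 steps numbered 51 in KO and 363 in WT, and those at 10 or more 304 in KO and 56 in WT. Within a section the list moved less over these distances than it differed between sections.

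**Figure D3:**
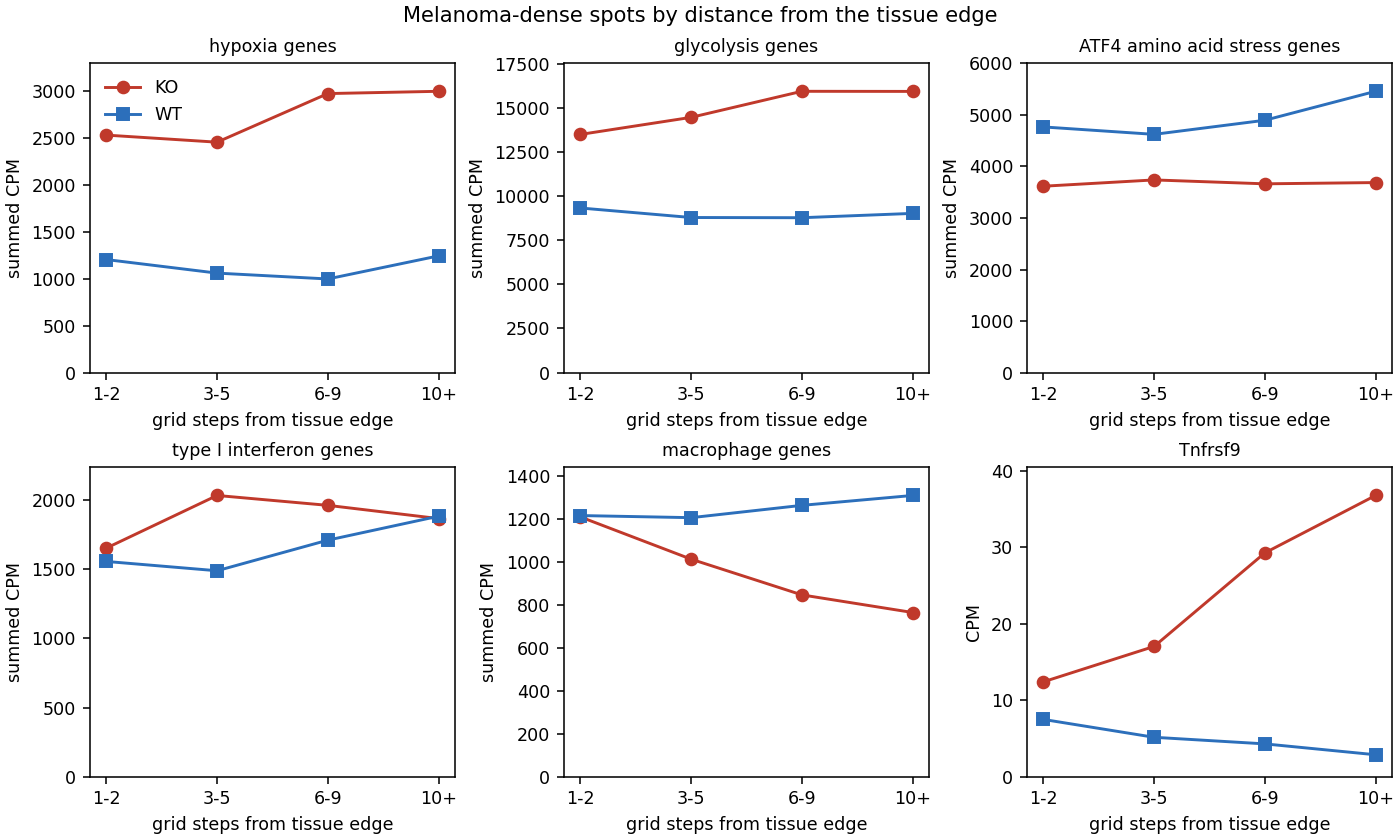
CPM in melanoma-dense spots (single gene for Tnfrsf9, list sums otherwise) against grid steps from the tissue edge, KO in red circles and WT in blue squares, 1 value per bin of 1-2, 3-5, 6-9 and 10 or more steps. Hypoxia and glycolysis sums are higher and the ATF4 sum lower in KO in all 4 bins, macrophage sums meet at 1-2 steps, and Tnfrsf9 reaches 36.8 CPM in KO against 2.88 CPM in WT at 10 or more steps.

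By quadrant of the section, with 3 quadrants of at least 50 melanoma-dense spots in each, hypoxia genes ranged over 2695 to 3132 CPM in KO and 976 to 2082 CPM in WT, without overlap. The remaining quadrant of each section was under that minimum, with 29 KO and 31 WT spots. It was at 1468 CPM in KO and 1983 CPM in WT. Quadrants were cut at each section's own median row and column, so KO and WT quadrants are not matched regions. The WT quadrant at 2082 CPM held 65 of the 757 spots, and the other 2 WT quadrants were at 976 and 1141 CPM. Car9 ranged over 388 to 521 CPM in KO quadrants and 89.4 to 296 CPM in WT quadrants. In the small quadrants it was at 180.2 CPM in KO and 255.9 CPM in WT spots. Bnip3, Ero1l, Vegfa and Hk2 were also lower in the small KO quadrant than in the small WT quadrant. The glycolysis sum of these quadrants was at 12303 CPM in KO and 12690 CPM in WT. The hypoxia sum thus exceeded that of every WT quadrant in 3 of the 4 KO quadrants. In the small KO quadrant it lay above the WT quadrants at 976 and 1141 CPM only. Lack of overlap between quadrants also occurred at small differences. The respiratory chain sum, at a ratio of 1.07, ranged over 12884 to 13211 CPM in KO and 12062 to 12260 CPM in WT. How many of all genes lack overlap was not computed. Single spots did overlap in their hypoxia sums. The hypoxia sum per spot had a median of 2956 CPM in KO, with 5% of spots under 940 and 5% over 5773 CPM. In WT its median was 965 CPM, with 5% of spots under 478 and 5% over 3392 CPM. Some WT spots thus reached the KO median, and some KO spots lay at the WT median.

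The 2 sections also differed in where these genes stood relative to the rest of the tissue. In the KO section the hypoxia sum of melanoma-dense spots was 1.23 times that of the other spots. In the WT section the melanoma-dense spots were at 0.651 times the other spots. Without the collagen limit, which adds 184 KO and 133 WT spots, 9 in place of 15 hypoxia genes were at least 2-fold higher and the median log2 ratio was 1.07. Across spots within a section, hypoxia and glycolysis sums went together (Pearson r = 0.906 over 613 KO spots and 0.914 over 757 WT spots), and hypoxia and mitosis sums went against each other (r = -0.307 in KO and -0.435 in WT). Spots of a section share a library and the sums share a total, so these are descriptions.

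Thinned to 5000 UMIs per spot, Car9 was found in 79.1% of KO spots (exact binomial 95% interval 75.7 to 82.3) and in 35.9% of WT spots (32.5 to 39.5). These intervals cover the counting of spots within 1 section and treat neighbouring spots as independent, so they say nothing of the spread between mice. Without thinning the shares were 99.02% in KO and 81.6% in WT. Off-tissue genes, which should be absent, had thinned shares with a median of 0.408% in KO and 0.132% in WT and a highest value of 3.75% in KO and 4.36% in WT. Car9 lay above that background in both sections.

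ATF4 amino acid stress genes were lower in the KO melanoma-dense spots, in the opposite direction to the hypoxia genes. Of 19 measured members 17 had ratios below 1, where 51.4% of all genes did, and 7 were at least 2-fold lower, where 2.04% of all genes were. The median log2 ratio was -0.76, with -0.49 in the other spots, and the sum was 3682 CPM in KO and 4774 CPM in WT spots. By quadrant the sum ranged over 3611 to 3817 CPM in KO and 4466 to 5650 CPM in WT, without overlap. The small quadrants were at 3401 CPM in KO and 4938 CPM in WT spots.

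Atf5, a transcription factor of mitochondrial stress (chr7:44812256-44816658), had 1936 UMIs (75.8 CPM) in KO and 8563 UMIs (279 CPM) in WT spots, 3.68-fold lower in KO. Shmt2, which makes one-carbon units from serine in mitochondria (chr10:127517123-127522444), had 3317 UMIs (129.9 CPM) in KO and 11290 UMIs (368 CPM) in WT spots, 2.83-fold lower. Other genes at least 2-fold lower, named after their values were seen, were the serine synthesis genes Phgdh (109.0 CPM in KO and 229 CPM in WT spots) and Psat1 at 2.37-fold and the proline synthesis gene Aldh18a1 at 2.401-fold. The cystine transporter gene Slc7a11, with 82 UMIs in KO and 201 in WT spots, was 2.04-fold and the leucine sensor gene Sesn2 2.02-fold lower, also named after the fact. Atf4 itself was at 482 CPM in KO and 571.5 CPM in WT spots, a ratio of 0.844, and the one-carbon enzyme Mthfd2 at 0.757. The amino acid transporter subunits Slc7a5 and Slc3a2 were the exceptions. Slc7a5 had 1111 CPM in KO and 744 CPM in WT spots, a ratio of 1.495 (1.47 to 1.52), and Slc3a2 a ratio of 1.20, which TMM factors brought to a log2 ratio of 0.05 in place of 0.27.

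An ATF4 element, searched as TGATGNAA on both strands, occurred in 3.97% of the 32817 promoters and in 6 of 19 promoters of this list (31.6%), belonging to 6 of 17 genes with a table entry. For this element, too, the share per gene over all genes was not computed. The windows of the 3 lowest ratios among these 6 genes are given with the matched letters in capitals. Slc7a11 (chr3:50443564-50443863, minus strand) holds 2 matches, Nupr1, a stress-induced chromatin protein (chr7:126625421-126625720, minus strand), 1 and Pck2, the mitochondrial PEP carboxykinase (chr14:55540016-55540315, plus strand), 1. Nupr1 was 1.84-fold and Pck2 1.76-fold lower in KO. Of the list genes at least 2-fold lower, only Slc7a11 had a window with the element. Atf5, Shmt2, Aldh18a1, Psat1, Phgdh and Sesn2 had no match or no table entry.
Slc7a11: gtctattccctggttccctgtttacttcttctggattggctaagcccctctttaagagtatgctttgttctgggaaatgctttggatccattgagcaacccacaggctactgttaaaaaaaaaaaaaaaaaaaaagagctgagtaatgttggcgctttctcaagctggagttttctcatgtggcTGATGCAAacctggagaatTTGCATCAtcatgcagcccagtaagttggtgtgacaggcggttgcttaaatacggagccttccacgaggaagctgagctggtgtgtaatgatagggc
Nupr1: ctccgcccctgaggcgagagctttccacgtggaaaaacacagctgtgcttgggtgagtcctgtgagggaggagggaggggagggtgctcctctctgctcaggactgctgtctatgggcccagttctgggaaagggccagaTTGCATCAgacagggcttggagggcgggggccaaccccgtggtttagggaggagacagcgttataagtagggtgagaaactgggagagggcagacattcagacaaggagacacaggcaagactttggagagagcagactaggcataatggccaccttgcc
Pck2: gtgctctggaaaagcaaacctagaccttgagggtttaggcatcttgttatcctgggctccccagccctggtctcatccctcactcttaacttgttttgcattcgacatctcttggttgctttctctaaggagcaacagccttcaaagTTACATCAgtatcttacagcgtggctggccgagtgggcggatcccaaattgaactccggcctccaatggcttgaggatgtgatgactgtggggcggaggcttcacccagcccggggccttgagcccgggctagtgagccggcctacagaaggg

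The ATF4 sum showed no common trend with distance. It stayed between 3616 and 3738 CPM over the 4 distance bins in KO, and between 4623 and 5458 CPM in WT, where the highest value fell to the 56 spots at 10 or more steps. Shmt2 at 10 or more steps was at 120.0 CPM in KO and 373 CPM in WT spots, and at 1 to 2 steps at 184 CPM in KO and 406 CPM in WT spots. Across spots the ATF4 and hypoxia sums correlated positively within both sections (r = 0.505 in KO and 0.295 in WT), while between the sections they differed in opposite directions.

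Several lists of growth and protein handling lay lower in KO by smaller amounts. Of 17 unfolded protein response genes 14 had ratios below 1 (against 51.4% of all genes) and 1 of these reached 2-fold (against 2.04%). Their median log2 ratio was -0.25. Hyou1, a chaperone of the endoplasmic reticulum, was at 174 CPM in KO and 385 CPM in WT spots, 2.21-fold lower, and Hspa5, the chaperone BiP, at 1843 CPM in KO and 2867 CPM in WT spots, 1.56-fold lower. Ddit3, the stress factor CHOP, lay on the other side at a ratio of 1.37. Of 16 MYC and ribosome biogenesis genes 15 had ratios below 1 (against 51.4% of all genes) and none reached 2-fold. Their median was -0.27. The nucleolar protein gene Npm1 had 550.4 CPM in KO and 819 CPM in WT spots. Of 9 heat shock genes Hspe1, a mitochondrial chaperonin subunit, was 2.25-fold lower (284 CPM in KO and 639 CPM in WT spots), while the inducible Hspa1b was higher at a ratio of 2.57. Polyamine genes, which the series title points to, had 13 of 16 ratios below 1 (against 51.4% of all genes) with a median of -0.31. Oaz1, an antizyme and brake on polyamine synthesis, stood at 449 CPM in KO and 804 CPM in WT spots. Arg1, the arginase that makes ornithine, gave 77 UMIs in KO and 127 in WT spots, a ratio of 0.729 (0.542 to 0.975), against 0.0729 in the other spots. Its direction in melanoma-dense spots depended on the choice of spots, with a ratio of 3.05 under 1 collagen limit for both sections, 1.93 with collagen below the lower quartile and 1.26 in interior spots. No polyamine gene reached 2-fold in melanoma-dense spots as chosen here.

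Proliferation genes did not separate the sections in 1 direction. Of 20 mitosis genes 9 lay above 1 (against 48.6% of all genes) and none reached 2-fold, with a median of -0.07. Their quadrants overlapped (2936 to 3421 CPM in KO and 2954 to 3654 CPM in WT). Mki67 had 593 CPM in KO and 492 CPM in WT spots, a ratio of 1.205 (1.18 to 1.23). Cdk1, the mitotic kinase, had 422.5 CPM in KO and 733 CPM in WT spots, 1.74-fold lower. Of 18 DNA replication genes 5 lay above 1 (against 48.6% of all genes), with a median of -0.15. The helicase subunit Mcm4 was 1.87-fold lower. In the other spots the medians of these lists were 0.34 for mitosis and 0.22 for DNA replication. Ccnd1, the cyclin that answers growth factors, was 2.12-fold lower in KO melanoma-dense spots (172 CPM in KO and 365 CPM in WT). It was the only member past 2-fold of 13 MAPK feedback genes, of which 7 lay above 1 (against 48.6% of all genes), with a median of 0.02. Immediate early genes split, with Fos at 23.6 CPM in KO and 9.19 CPM in WT spots and Nr4a1 at 68.9 CPM in KO and 126 CPM in WT spots. The p53 target Aen was 1.96-fold lower, the lowest of 15 cell cycle inhibitors and p53 targets, of which 4 lay above 1 (against 48.6%). The survival gene Bcl2l1 had a ratio of 1.74. Of 16 apoptosis regulators 10 lay above 1, with a median of 0.06, and Bbc3 and Bax lay below at log2 ratios of -0.72 and -0.52.

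**Figure D4:**
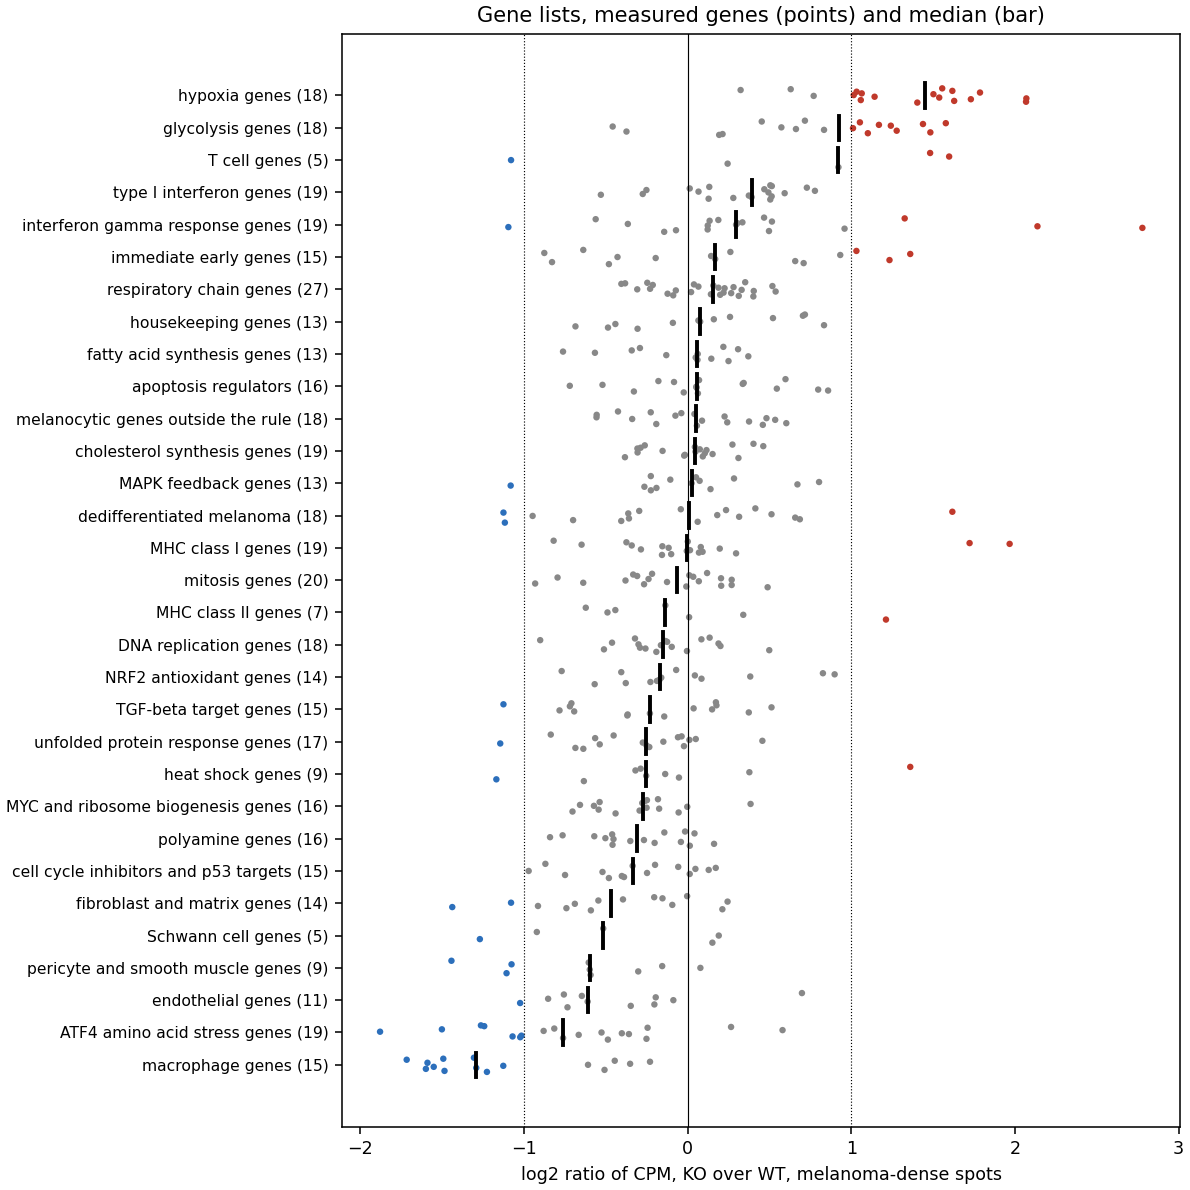
Log2 ratio of CPM, KO over WT, in melanoma-dense spots for each measured gene (points) of every list with at least 5 measured genes, with the number measured in brackets and the list median as a black bar; red points are at least 2-fold higher and blue points at least 2-fold lower in KO, and dotted lines mark 2-fold. Hypoxia genes have the highest median (1.45) and macrophage genes the lowest (-1.29).

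Type I interferon genes were mostly higher in KO by small ratios, while the interferon gamma list differed in sign between its median and its sum. Of 19 type I interferon genes 16 had ratios above 1 (against 48.6% of all genes) and none reached 2-fold. Their median log2 ratio was 0.39, 0.18 with TMM factors, and -0.26 in the other spots. Xaf1, an apoptosis-promoting interferon gene, had 117 CPM in KO and 68.1 CPM in WT spots, a ratio of 1.71. Rtp4, a receptor transporter, had 179 CPM in KO and 108 CPM in WT spots. The list sum was 1865 CPM in KO and 1882 CPM in WT spots at 10 or more steps from the edge, and its quadrants overlapped. The 19 interferon gamma response genes had a median of 0.30 (0.08 with TMM factors). Of them 3 were above and 1 below the 2-fold limits (against 1.31% and 2.04% of all genes). Their sum was 869 CPM in KO and 892 CPM in WT spots, a ratio of 0.975 (0.957 to 0.992), and quadrants overlapped (772 to 882 CPM in KO and 817 to 1103 CPM in WT). Cxcl9, which draws CXCR3-bearing T cells, gave 345 UMIs in KO and 60 in WT spots, a ratio of 6.91 (5.24 to 9.25). Cxcl10, which binds the same receptor, went the other way with 2678 UMIs in KO and 6878 in WT spots, 2.14-fold lower. Gbp4, a guanylate-binding protein, gave 243 UMIs in KO and 66 in WT spots. MHC class I genes had a median of -0.01, with H2-D1 1.57-fold lower and 2 class Ib genes, H2-Q6 and H2-Q7, at 3.93 and 3.31. These 2 are near-identical copies, and probes could share reads between them.

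What else the spots held was read from markers of other cells. Macrophage genes were lower in KO, with 15 of 15 measured members below 1 (against 51.4% of all genes) and 10 past 2-fold (against 2.04%). The median log2 ratio was -1.29, and -0.87 in the other spots. Of the defining markers none was at 0 UMIs in either section. C1qc, a complement subunit of tissue macrophages, gave 535 UMIs (21.0 CPM) in KO and 1886 UMIs (61.5 CPM) in WT spots, 2.93-fold lower. Mrc1, the mannose receptor, was 2.81-fold, Tyrobp, an adaptor of myeloid receptors, 3.02-fold and Trem2, a lipid receptor, 3.31-fold lower. Stab1, a scavenger receptor, and C3ar1, a complement receptor, both of no list here, were 3.64-fold and 3.18-fold lower. The list sum of 846 CPM in KO and 1225 CPM in WT spots was mostly Apoe, a lipid carrier, at 658 CPM in KO and 840 CPM in WT. By quadrant the sum was 762 to 1086 CPM in KO and 1173 to 1326 CPM in WT. Fewer cells of a type and less RNA per cell cannot be told apart in such sums.

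The macrophage sum of the sections met near the edge. At 1 to 2 steps it was 1210 CPM in KO and 1216 CPM in WT spots, and at 10 or more steps 765 CPM in KO and 1310 CPM in WT spots. With equal weight for the 4 distance bins 5 in place of 10 members were at least 2-fold lower, and with at least 500 UMIs per gene 6 were. Across spots of a section macrophage and hypoxia sums were uncorrelated (r = -0.0318 in KO and 0.0239 in WT). The part of macrophages in the differences above was not tested.

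Vessel and stroma markers were mostly lower as well, with exceptions. Of 11 endothelial genes 10 lay below 1 (against 51.4% of all genes), with a median of -0.61. Only 1 of them was at least 2-fold lower (against 2.04%). Cldn5 was higher in KO at a log2 ratio of 0.70. Cdh5 and Flt1, at -0.20 and -0.09, changed sign under some alternatives. Plvap, a protein of vessel openings, was at 28.0 CPM in KO and 50.5 CPM in WT spots. The list sum was 363 to 414 CPM over KO quadrants and 496 to 566 CPM over WT quadrants. The small quadrants were at 589 CPM in KO and 472 CPM in WT, so this KO value lay above every WT quadrant. Of 9 pericyte and smooth muscle genes 8 lay below 1 (against 51.4% of all genes). At least 2-fold lower were 3 of them (against 2.04%). Among these, Acta2 was at 6.70 CPM in KO and 18.2 CPM in WT spots. Pdgfrb and Tagln had log2 ratios of -0.003 and -0.16, and both changed sign under some alternatives. Fibroblast and matrix genes outside the criteria had a median of -0.47, which 1 collagen limit for both sections turned to 0.20. Of 5 Schwann cell genes, which neural-crest tumours can share, 3 lay below 1 (against 51.4% of all genes) and 2 above. Their median was -0.52, and -0.76 to 0.15 over the alternatives. Pmp22, 2.41-fold lower, was the 1 member past 2-fold (against 2.04%).

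Erythroid genes were higher in KO, with 4 of 4 measured members past 2-fold (against 1.31% of all genes). Their sums were 660 CPM in KO and 130 CPM in WT spots. Hbb-bt, a beta globin, gave 2002 UMIs in KO and 163 in WT spots, a ratio of 14.8 (12.6 to 17.4), although probes of near-identical globin copies may share reads. Hbb-bs had a ratio of 5.11 and Hba-a2 of 3.79. The same sums were 2756 CPM in KO and 407 CPM in WT in the other spots. In WT the 56 spots at 10 or more steps reached 435 CPM, against 752 CPM in KO. Skeletal muscle genes, 3 measured, had a median of -0.27 in melanoma-dense spots and 2.35 in the other spots. Y-linked genes gave 89 UMIs in KO spots (3.49 CPM, against 19.3 CPM and 1319 UMIs in the other KO spots). They gave 0 UMIs in WT melanoma-dense spots and 0 in the other WT spots. The sex of the animals is not given in the labels. A difference in host sex cannot be told apart from genotype here, and its part was not tested.

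Lymphocyte genes were sparse. Foxp3, which marks the cells that the Cre acts in, gave 6 UMIs in KO and 8 in WT spots, below 2 times the off-tissue median of 26 UMIs in KO and 11 in WT, so nothing was read about regulatory T cells here. Csnk2b, the floxed gene, had 9869 UMIs (387 CPM) in KO and 12897 UMIs (420 CPM) in WT spots, a ratio of 0.919 (0.896 to 0.944), with overlapping quadrants. Tumour cells keep the gene by design, so this does not check the deletion. The catalytic subunit Csnk2a1 had a ratio of 1.41 and Csnk2a2 of 1.08, which scaling by TMM factors turned below 1. Cd3e, a CD3 signalling chain, gave 99 UMIs in KO and 39 in WT spots, Cd8a 64 in KO and 13 in WT and the granzyme gene Gzma 121 in KO and 8 in WT. By the limit used for Foxp3, these counts passed in KO. In WT, Cd3e and Cd8a passed and Gzma did not. Gzma ranged over 3.90 to 4.84 CPM in KO quadrants and 0.242 to 0.454 CPM in WT quadrants. Only 5 of 16 T cell genes and 2 of 15 CD8 and cytotoxic genes reached 100 UMIs. Among genes with 20 to 99 UMIs over both sums 41.9% had a ratio of 2 or more and 2.02% of 0.5 or less, the band of Cd8a. Among genes with at least 100 and under 500 UMIs, the band of Cd3e and Gzma, these shares were 3.41% and 7.34%. After thinning, Gzma was found in 13 of 613 KO spots (2.12%) and in 0 of 757 WT spots, which allows a share of spots with a UMI of up to 0.396% (3 counts of the total), and Cd3e in 1.79% of KO and 0.925% of WT spots. These thinned shares lay within the range of the off-tissue genes, whose highest value was 3.75% in KO and 4.36% in WT. The shares are not read as expression.

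Tnfrsf9 and Cxcl9 lay above that range in KO and within it in WT, with Tnfrsf9 in 11.3% of KO spots (8.86 to 14.0) and 4.23% of WT spots (2.91 to 5.92), and Cxcl9 in 4.57% of KO and 1.06% of WT spots. Tnfrsf9 was at 12.4 CPM in KO and 7.504 CPM in WT spots at 1 to 2 steps from the edge and at 36.8 CPM in KO and 2.88 CPM in WT spots at 10 or more steps. The T cell list over the same bins was at 40.9 CPM in KO and 27.2 CPM in WT, and at 28.3 CPM in KO and 24.8 CPM in WT. The T cell sums of these KO bins rest on 56 UMIs at 1 to 2 steps and 357 UMIs at 10 or more. Which cells Tnfrsf9 came from was not tested. The Tnfrsf9 quadrants overlapped, since the WT quadrant of 65 spots was at 20.9 CPM and a KO quadrant at 18.2 CPM.

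**Figure D5:**
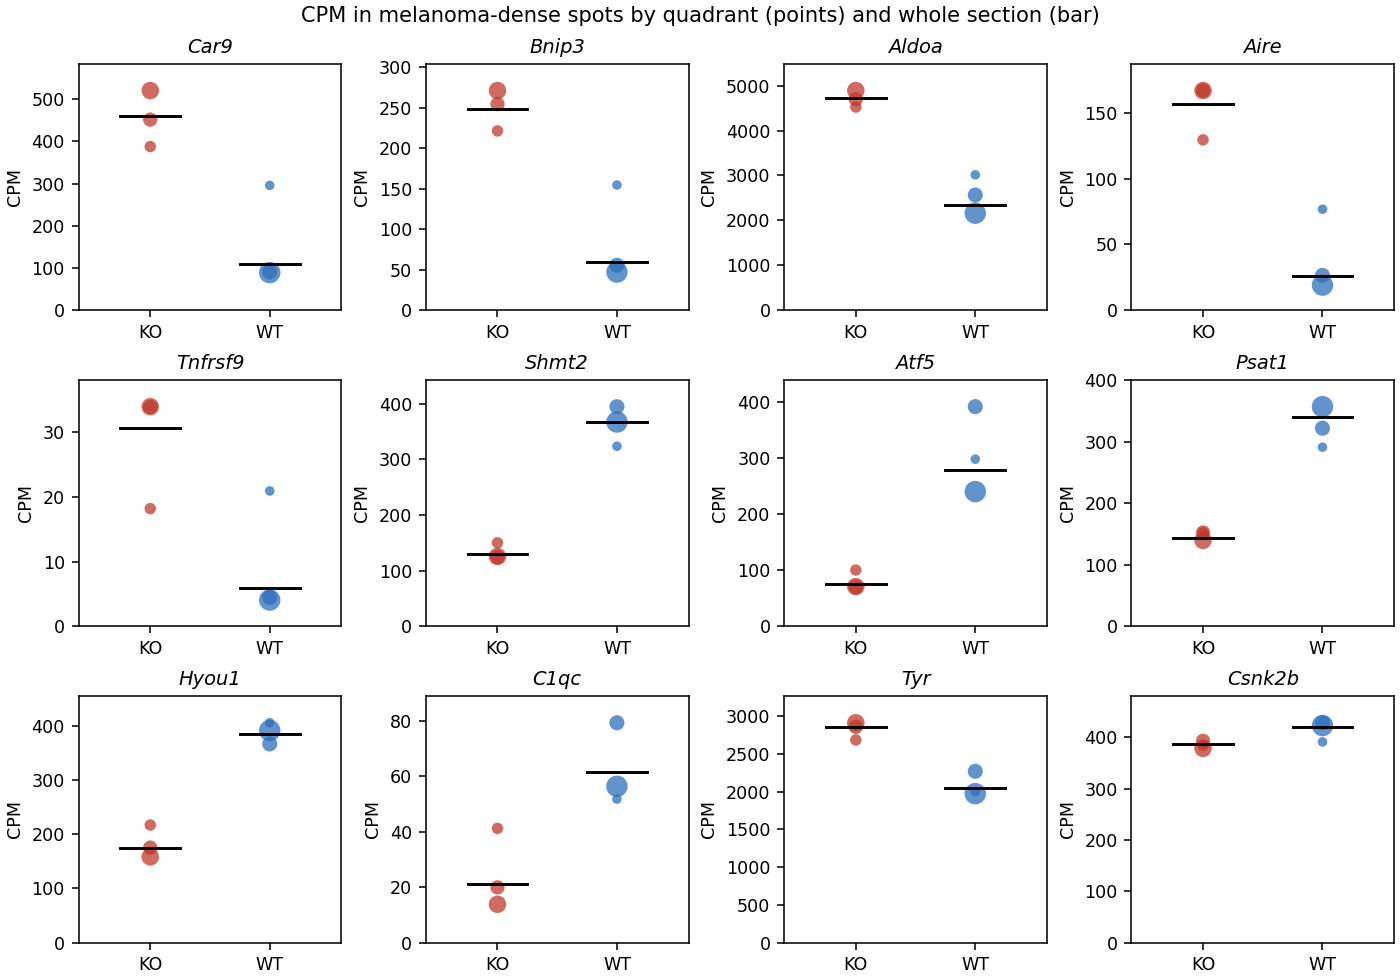
CPM of 12 genes in melanoma-dense spots of each quadrant with at least 50 such spots (points, area growing with the number of spots) and of the whole section (black bar), KO left in red and WT right in blue, each axis from 0. The quadrants plotted do not overlap between sections for Car9, Bnip3, Aldoa, Aire, Shmt2, Atf5, Psat1, Hyou1, C1qc and Tyr, and overlap for Tnfrsf9 and Csnk2b. The genes were picked for display, and the share without overlap over all genes was not computed.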

How the data were processed

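Spots of 2 Visium CytAssist sections, 1 per genotype, were analysed from the deposited filtered UMI counts per gene and spot, which the authors made (Space Ranger 2.1.0, per the file headers). The submitters' processing notes also name featureCounts and the mm10 build. Counts of 11 rows with a repeated symbol were added to their namesakes. Counts of member spots were summed per section and divided by the sum (CPM). Ratios are of CPM, KO over WT, with 95% exact conditional binomial (Clopper-Pearson) intervals, and log2 values have 0.5 added to each count. Genes with at least 100 UMIs over both sums were called measured. A spot's tissue edge is the nearest grid position without tissue or outside the frame. Members and the 46 lists (689 genes, 653 in the files) were chosen with earlier results of these data known. Named genes were a fixed set (CK2 subunits, Foxp3, Cd3e, Cd8a, Gzma, Cxcl9, Arg1, Car9 and the 7 genes of the criteria), the 15 highest and 15 lowest ratios among genes with 500 UMIs in their higher section, predicted and Rik genes left out, and per list the 4 members with most UMIs and the 2 highest and 2 lowest ratios. Serine and proline synthesis genes, Slc7a11, Sesn2, Nupr1 and Pck2 were named after their values were seen. Tumour programme and cell type lists were described by counts and medians, with no test. Old symbols were matched through RefSeq synonyms. Alternatives covered scaling, spot and gene minimums, both criteria, spot weights, edge spots and off-tissue background. Python 3.11.15, numpy 2.4.6, scipy 1.17.1, pandas 2.3.3, R 4.3.3 and edgeR 4.0.16 (TMM factors) were used.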

Additional observations from a re-analysis of the deposited data

Results flagged for a closer look

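In 5 genes with at least 100 UMIs over both sections in both kinds of spot, the KO to WT ratio in melanoma-dense spots was at least 2-fold on one side of 1 and that in the other spots at least 2-fold on the opposite side. With 1 section per genotype the difference between the ratios was not tested. In melanoma-dense spots 10767 genes were measured, and in the other spots 12796. How many were measured in both was not counted, so the 5 genes have no share beside them. Gadd45g, a growth arrest and stress gene, gave 405 UMIs in KO and 139 in WT melanoma-dense spots, a ratio of 3.501, against 0.417 in the other spots (1355 UMIs in KO and 2740 in WT). Loxl2, a lysyl oxidase that cross-links collagen and is also on the hypoxia list, gave 680 UMIs in KO and 266 in WT melanoma-dense spots, a ratio of 3.072, against 0.236 in the other spots (3246 UMIs in KO and 11603 in WT), where collagen genes were also lower in KO. Its quadrant ranges overlapped in melanoma-dense spots, and without the collagen limit its ratio there was 1.96, below 2-fold. Dpysl3, a cytoskeletal protein, gave 94 UMIs in KO and 46 in WT melanoma-dense spots, a ratio of 2.455, against 0.208 in the other spots. Egln3, a HIF prolyl hydroxylase, gave 103 UMIs in KO and 59 in WT melanoma-dense spots, a ratio of 2.098, against 0.444 in the other spots. Acta1, skeletal muscle actin, went the other way, with 41 UMIs in KO and 104 in WT melanoma-dense spots, a ratio of 0.4737, against 5.11 in the other spots (6551 UMIs in KO and 1081 in WT). With equal weight for 4 distance bins its ratio in melanoma-dense spots turned to 1.21, so its opposite direction rests on how spots are weighted. In melanoma-dense spots 3 of the intervals reached inside 2-fold. These were Dpysl3 (1.71 to 3.57), Egln3 (1.51 to 2.94) and Acta1 (0.322 to 0.686). All 3 lay in the band from 100 to under 500 UMIs, where 3.41% of genes had a ratio of 2 or more and 7.34% of 0.5 or less.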

How the results depend on the processing

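The hypoxia median log2 ratio stayed between 1.07 and 1.75, the glycolysis median between 0.68 and 1.03, the ATF4 median between -1.01 and -0.66 and the macrophage median between -1.54 and -0.85 over all alternatives run. Counts at the 2-fold limits moved more, since scaling shifts every gene. TMM factors gave 444 lower genes and 5 glycolysis genes at least 2-fold higher. Median-of-ratios size factors gave 82 higher and 498 lower genes and 4 glycolysis genes. Without the collagen limit 9 hypoxia genes passed. A minimum of 500 UMIs per gene gave 81 higher and 91 lower genes and 6 lower macrophage genes, and a minimum of 20 UMIs gave 1923 higher genes and 306 lower genes. A 1.5-fold limit gave 690 higher and 939 lower genes and 11 lower ATF4 genes. Of the 2 alternatives chosen after seeing the data, equal weight for 4 distance bins gave 5 lower macrophage genes and turned Acta1 to a log2 ratio of 0.28, and 1 collagen limit for both sections gave 144 lower genes. Higher genes were 28.5% of both classes with off-tissue background taken off, 51.9% with the distance bins, 53.4% with 1 collagen limit and 86.3% at 20 UMIs. The cause of each shift was not tested, except that the UMI minimum and the fold limit change the genes counted by construction. Of the other values, 3279 kept within their interval and 1193 moved beyond it. The minimums of 500 and 20 UMIs per gene leave the ratio of a named gene unchanged by construction, and these count as kept. A list median has no interval of its own and was judged by that of the member nearest to it. Acta1 was the 1 gene past 2-fold that changed direction, but of all 249 named genes 58 changed sign under at least 1 alternative, as did 13 of 31 list medians. No paired analysis was possible because each genotype has 1 section. Depth limits what can be read of lymphocyte, neutrophil, NK cell and keratinocyte genes, few or none of which reached 100 UMIs.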

Other observations

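Cholesterol synthesis (19 measured genes) and fatty acid synthesis (13) had median log2 ratios of 0.05 and 0.06, both below 0 with TMM factors, and none of their genes reached 2-fold. Of 14 NRF2 antioxidant genes 9 lay below 1 (against 51.4% of all genes). The ferritin gene Fth1 had a ratio of 0.586 while the glutathione transferase gene Gsta4 had one of 1.86. Among 18 genes of dedifferentiated melanoma 9 lay above and 9 below 1, with a median of 0.01. Neutrophil, NK cell and keratinocyte genes had no member with 100 UMIs. Of 3 measured B and plasma cell genes 2 were at least 2-fold lower in KO (against 2.04% of all genes). Among them, Igkc gave 17 UMIs in KO and 117 in WT melanoma-dense spots.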
